A study of Mus musculus with 24 samples.

Results

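The effect of 1 ethanol binge on the liver transcriptome was measured in mice that had already been fed ethanol for 8 weeks. The binge livers, abbreviated E8w1B, came from mice on the ethanol diet for 8 weeks that also received a binge of 5 g of ethanol per kg (n = 5 arrays). They were set against livers after 8 weeks of the ethanol diet with no binge, abbreviated E8w (n = 5 arrays). These 10 of the 24 arrays of the series were chosen by their sample titles. All mice were male and of the inbred strain C57BL/6N, and the labels of the 2 groups differ in the binge alone. The time between the binge and the collection of the liver, the ethanol content of the diet and the age of the mice are not given in the sources used here, and the E8w labels name no sham dose. Levels in the livers of mice given 8 weeks of ethanol with binges 2 times per week (E8wMB, n = 4) and of mice pair-fed a control diet for 8 weeks (P8w, n = 4) are shown for context.

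Each liver RNA was labelled with Cy5 and hybridised on 1 Agilent 2-colour array with a Cy3-labelled reference RNA, and a level is the log2 ratio of Cy5 over Cy3. The labels name the reference as a mixed mouse RNA and also give its tissue as liver, so its makeup is uncertain. They do not say that the replicates are separate animals, so p-values measure the spread between these samples, which may be technical. Each of 5 slides held 1 array of each group. The median Cy5 intensity of the 10 arrays lay between 95.5 and 247 and that of Cy3 between 161.5 and 242.5, and 70.4% to 86.7% of the probes were well above background in Cy5. All 8 hepatocyte markers tested were well above background on all 10 arrays, and no spot was saturated.

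A large oral dose of ethanol is oxidised in hepatocytes by alcohol dehydrogenases and the cytochrome CYP2E1 to acetaldehyde, which aldehyde dehydrogenases convert to acetate. Binge drinking is known to raise gut-derived lipopolysaccharide and stress hormones in rodents, and the liver answers such signals by making acute phase proteins and metallothioneins. The liver also stores fat in droplets, whose size is set by coat proteins of the perilipin and CIDE families. Cidec encodes CIDEC, or fat-specific protein 27, which helps droplets fuse and is the gene named in the title of the series.

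Of 15831 genes tested with limma, 2601 (16.4%) passed an adjusted p of 0.05. After the binge 1272 genes (8.03%) were higher and 1329 (8.39%) were lower, and of these 170 and 145 differed by at least 2-fold. In the scanner software's log ratio 292 and 244 did, and in the deposited log2 values 303 and 254. With median centring of each array in place of loess, 829 were higher and 501 lower, so that the share of higher calls was 62.3% against 48.9%. The 5 E8w1B arrays did not overlap the 5 E8w arrays for 1947 genes (12.3%), of which 950 (6%) were higher and 997 (6.3%) lower. On each slide between 95.1% and 99.6% of the called genes had the sign of the overall difference, which the calls rest on. Differences below are E8w1B minus E8w on the log2 scale ± SE, with n = 5 and 5 arrays unless given, and arrays are listed in the order of their replicate numbers.

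**Figure D1:**
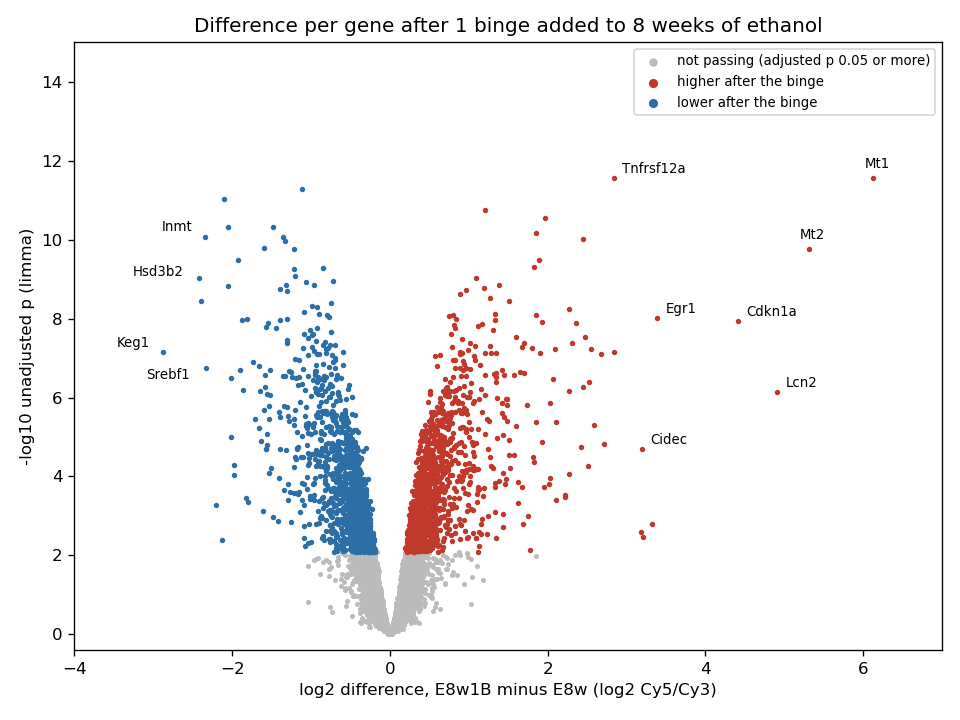
Each point is 1 of the 15831 genes tested, with the log2 difference E8w1B minus E8w across and the -log10 of the unadjusted limma p upward. Genes that passed the adjusted threshold are red where they were higher after the binge (1272) and blue where they were lower (1329), and Mt1 and Mt2 lie farthest to the right.

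E8w1B replicate 2 stood apart from the other 4 binge arrays for acute phase genes. The median of the acute phase list, relative to the mean of the E8w arrays, was 2.19, -0.044, 1.14, 1.16 and 1.72 on the E8w1B arrays and 0.11, 0.26, -0.28, 0.11 and -0.51 on the E8w arrays. Results for acute phase genes are therefore given with and without that array. It was picked by the levels of these same genes. Larger rises and smaller p-values without it follow from that choice and are no support for the rises. Between pairs of arrays, the log2 ratios of the genes correlated at r = 0.51 to 0.80 within E8w1B, 0.66 to 0.80 within E8w and 0.15 to 0.59 between the groups, over 14133 genes that are not independent replicates. Liver tissue holds many cell types, and in bulk RNA fewer cells of a type and less RNA per cell cannot be told apart.

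Metallothioneins, small cysteine-rich proteins that bind zinc and copper, gave the largest differences of any gene tested in the Cy5/Cy3 ratio. Mt1 was at 2.88, 0.79, 2.21, 1.50 and 2.40 in E8w1B livers, against -3.59, -4.22, -4.77, -3.63 and -4.63 in E8w livers. Its relative Mt2 was at 2.13, 0.68, 1.57, 1.26 and 1.70 in E8w1B livers, against -3.17, -3.64, -4.60, -3.83 and -3.98 in E8w livers. For both genes every binge array lay above every E8w array, which the choice of the largest rises required. Mt1 rose by 6.12 ± 0.46 (69.6-fold, adjusted p = 2.2e-08) and Mt2 by 5.31 ± 0.48 (39.6-fold, adjusted p = 1.74e-07). Cy5 alone gave 4.28 for Mt1 and 4.58 for Mt2, less than the 4.72 of Lcn2, and the Cy3 signal of the reference differed between the groups' arrays by -1.84 (adjusted p = 0.00458) for Mt1 and -0.73 (adjusted p = 0.651) for Mt2. The transcripts are alike in sequence, so probes for one may also take up the other. Slc39a14, which encodes the zinc importer ZIP14, was at -0.47 to 1.63 on E8w1B arrays, against -1.23 to -0.69 on E8w arrays, a rise of 1.59 ± 0.27 (adjusted p = 0.000207). Of 11 metallothionein and zinc transporter genes tested 4 rose, the fourth being Slc39a5, and 0 fell, while their median difference was 0.081, against 0.012 over all genes.

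The stretches before the start sites of both genes are shown because metallothionein genes are switched on through metal response elements, to which the zinc sensor MTF-1 binds. The 250 bases before each start in the RefSeq table (GRCm38.p6) were searched on both strands for the core of the element, TGCGCNC or TGCACNC, and matches are in capitals. The Mt1 stretch, chr8:94178839-94179088 on the + strand, had 1 match.
Mt1: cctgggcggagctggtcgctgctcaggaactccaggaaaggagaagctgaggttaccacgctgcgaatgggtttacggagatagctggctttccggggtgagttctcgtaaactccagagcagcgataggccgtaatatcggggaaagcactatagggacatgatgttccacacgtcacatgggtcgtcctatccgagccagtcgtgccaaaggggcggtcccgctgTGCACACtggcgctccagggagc
The Mt2 stretch, chr8:94172368-94172617 on the + strand, had 3 matches.
Mt2: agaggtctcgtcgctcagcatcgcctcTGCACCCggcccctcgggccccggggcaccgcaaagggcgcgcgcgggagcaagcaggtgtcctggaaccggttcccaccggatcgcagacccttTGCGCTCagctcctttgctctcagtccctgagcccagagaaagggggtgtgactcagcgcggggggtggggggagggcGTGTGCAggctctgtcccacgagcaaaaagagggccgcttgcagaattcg
The table holds 32851 promoters of this length, and 21.4% of them held at least 1 match and 5.17% at least 2. The 50 bases after the table's start held 2 further matches in Mt1 and 1 in Mt2, and those of Mt1 lie in the first 30 bases, chr8:94179089-94179118.
Mt1 after the start: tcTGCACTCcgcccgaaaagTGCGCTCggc
The table's starts may lie upstream of those used in liver, and a match is a description of these letters.

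Acute phase proteins are released by the liver during inflammation, and their genes made up the list with the most members that rose. Of 29 tested 18 rose and 1 fell, with a median difference of 1.17. Leaving out 1 array gave 12 to 20 rises: 20 without E8w1B replicate 2, and 12 without E8w1B replicate 1 or 5. In Cy5 alone 12 rose. Lcn2, which encodes the iron-withholding lipocalin 2, was at 1.38, -2.34, 0.018, 0.062 and 1.00 in E8w1B livers, against -4.79, -3.93, -5.23, -4.77 and -5.71 in E8w livers. The lowest binge array for Lcn2 was replicate 2, and it still lay above all E8w arrays. Lcn2 rose by 4.91 ± 0.73 (30.1-fold, adjusted p = 5.05e-05), and by 5.50 without that array. Cd14, the co-receptor that passes lipopolysaccharide to TLR4, was at 1.03, -0.084, 1.12, -0.14 and -0.12 in E8w1B livers, against -2.44, -2.19, -2.24, -2.23 and -1.46 in E8w livers, and rose by 2.48 ± 0.30 (adjusted p = 6.15e-06). Lbp, whose product carries lipopolysaccharide to CD14, rose by 1.17 ± 0.18 (n = 4 and 5, adjusted p = 0.000121), and the secreted glycoprotein gene Lrg1 rose by 2.42 ± 0.45 (adjusted p = 0.000529). For these 4 genes the groups' arrays did not overlap, which the choice of the largest rises required of Lcn2 and Cd14. Stat3, the transcription factor that carries interleukin-6 signals, rose by 0.97 ± 0.15 (adjusted p = 0.000113), with arrays that overlapped. Without E8w1B replicate 2 the rises of Cd14, Lbp, Lrg1 and Stat3 were 2.59, 1.26, 2.89 and 1.16, and all 4 passed (adjusted p between 7.42e-07 and 0.000141). Il1r1, the interleukin-1 receptor and no member of this list, was at 1.65, -1.20, 0.52, 0.77 and 1.27 in E8w1B livers, against -2.54, -1.84, -2.23, -1.91 and -1.40 in E8w livers, and rose by 2.59 ± 0.44 (adjusted p = 0.000207).

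The serum amyloid A genes, which encode acute phase apolipoproteins, differed widely between the binge arrays. Saa1 was at 1.91, -4.03, -0.85, 0.13 and 1.21 in E8w1B livers, against -3.08, -1.95, -4.58, -3.45 and -4.48 in E8w livers. Saa2 was at 1.45, -4.40, -1.34, -0.25 and 0.79 in E8w1B livers, against -3.89, -2.57, -5.03, -4.18 and -4.69 in E8w livers. Saa3 was at 1.61, -4.65, -1.24, -0.33 and 0.74 in E8w1B livers, against -3.74, -2.17, -5.03, -3.79 and -5.21 in E8w livers. On replicate 2 of E8w1B all 3 genes stayed within the range of the E8w arrays, while the other 4 binge arrays lay higher. The differences were 3.18 ± 0.94 for Saa1 (adjusted p = 0.0204), 3.32 ± 0.93 for Saa2 (adjusted p = 0.0149) and 3.21 ± 0.99 for Saa3 (adjusted p = 0.0259). The calls of Saa1 and Saa3 were lost without E8w1B replicate 1 or 5 and without E8w replicate 3 or 5, where the adjusted p lay between 0.053 and 0.0825. Both were also lost in the 10 arrays alone with the slide as a block, as was Saa1 in Cy5 alone, at 2.18 (adjusted p = 0.0542). Saa1 and Saa2 are near-identical in sequence, so their probes may not tell them apart. Without E8w1B replicate 2 the differences were 4.11, 4.23 and 4.18 for Saa1, Saa2 and Saa3, with adjusted p between 0.000907 and 0.00163. These 3 genes were chosen after their values were seen.

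Fibrinogen, the clotting protein that forms fibrin, is also an acute phase protein. Fgb, which encodes its beta chain, was at 2.53, -1.01, 0.84, 0.95 and 1.75 in E8w1B livers, against -0.57, -0.77, -1.23, -0.84 and -1.32 in E8w livers. Fgg, which encodes the gamma chain, was at 1.77, -1.52, 0.41, 0.74 and 1.18 in E8w1B livers, against -1.28, -1.54, -1.38 and -1.85 in 4 E8w livers. Replicate 2 was again the binge array within the E8w range. Fgb rose by 1.96 ± 0.44 (adjusted p = 0.00285, and 0.84 in Cy5 alone, where it also passed) and Fgg by 2.03 ± 0.42 (adjusted p = 0.00191). Without that array the rises were 2.46 and 2.54 (adjusted p = 4.24e-05 and 4.69e-06). Both were chosen after their values were seen. Orm2, an orosomucoid gene of the same list, was at 1.10 ± 0.43 and did not pass (adjusted p = 0.0907), while without E8w1B replicate 2 it passed at 1.37 (adjusted p = 0.0322). The member that fell was Hamp2, a hepcidin gene, at -1.28, -1.52, -2.09, -0.16 and -1.03 in E8w1B livers, against 0.84, 1.67, 0.82, 0.44 and 0.22 in E8w livers, a difference of -2.01 ± 0.36 (adjusted p = 0.000329), or -1.93 without that array (adjusted p = 0.00108). Hamp, which encodes the hormone hepcidin that restrains iron release, was at 1.15, -3.72, -2.11, -1.14 and -0.69 in E8w1B livers, against -1.23, -0.36, -1.32, 0.25 and -0.051 in E8w livers. Its difference of -0.76 ± 0.58 did not pass (adjusted p = 0.462), and without E8w1B replicate 2 it was -0.16 (adjusted p = 0.899).

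The fibrinogen promoters are shown because interleukin-6 drives acute phase genes through STAT3 and short type 2 elements with the core CTGGGA. Matches on either strand are in capitals. The 250 bases before the Fgb start are chr3:83049864-83050113 on the - strand.
Fgb: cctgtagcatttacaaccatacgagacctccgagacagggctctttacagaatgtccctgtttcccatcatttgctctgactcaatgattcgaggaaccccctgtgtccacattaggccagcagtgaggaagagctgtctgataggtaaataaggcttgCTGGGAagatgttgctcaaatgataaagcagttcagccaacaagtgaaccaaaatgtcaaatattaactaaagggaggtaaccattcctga
Those before the Fgg start are chr3:83007474-83007723 on the + strand.
Fgg: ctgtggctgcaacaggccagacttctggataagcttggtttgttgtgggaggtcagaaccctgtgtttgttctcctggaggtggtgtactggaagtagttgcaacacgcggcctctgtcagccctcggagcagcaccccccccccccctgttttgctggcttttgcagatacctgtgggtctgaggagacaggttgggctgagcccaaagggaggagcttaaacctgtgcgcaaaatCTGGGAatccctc
Each held 1 match. Of 28 promoters of the acute phase list, for 25 genes, 14 (50%) held a match, against 27% of all 32851 promoters. No conclusion about STAT3 is drawn from this.

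Of 11 neutrophil markers tested beside these genes 2 rose and 1, Csf3r, fell (0 fell with median centring, in Cy5 alone or without E8w replicate 2). S100a8 was at 0.60 (adjusted p = 0.00347) and S100a9 at 0.73 (adjusted p = 0.00845), the 2 genes of calprotectin, an abundant neutrophil protein. S100a8 was well above background on 4 of 5 E8w1B arrays and 1 of 5 E8w arrays, and it was at 1.94 in the scanner software's log ratio. The median of the list on an array, relative to the E8w mean, was between -0.048 and 0.37 in E8w1B livers and between -0.094 and 0.065 in E8w livers. Of 16 Kupffer cell and macrophage markers 1 rose, Cd163, whose call was lost with median centring, in Cy5 alone, in the 10 arrays alone and when any 1 of 6 arrays was left out, and 1 fell, Cd5l, at -0.60 ± 0.13 (adjusted p = 0.00267). Of 17 stellate cell and matrix markers 4 passed as higher and 3 as lower, with a median difference of 0.26. With median centring or in Cy5 alone 2 were higher and 1 lower, and 8 were higher without E8w1B replicate 1. The median of that list on an array, relative to the E8w mean, was -0.087, 0.41, 0.33, 0.15 and 0.37 in E8w1B livers and 0.087, -0.0064, -0.0076, 0.032 and -0.085 in E8w livers. Timp1, an inhibitor of matrix proteases, rose by 0.41 ± 0.098 (adjusted p = 0.00453), and the actin gene Acta2 was at -0.73 ± 0.13 on its brightest probe (adjusted p = 0.000481) and 0.064 on another (adjusted p = 0.783). None of 11 T and NK cell markers, 7 B cell markers and 8 cholangiocyte markers passed in limma, and 1, 0 and 0 of them had an unadjusted p under 0.05. Over all genes tested 8.03% rose and 8.39% fell, and the part of cell numbers in these results was not tested.

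Of 22 genes of the p53 and growth arrest list 12 rose and 1, Trp53, fell, with 10 to 12 rises when 1 array was left out and 7 in Cy5 alone or with median centring. Cdkn1a, which encodes the cell cycle inhibitor p21, was at 1.04, 0.93, 1.23, 1.31 and 1.46 in E8w1B livers, against -2.62, -3.39, -3.51, -3.50 and -3.07 in E8w livers. The binge arrays were close together, with an SD of 0.21, and replicate 2 was not apart here. Cdkn1a rose by 4.41 ± 0.51 (21.3-fold, adjusted p = 3.11e-06). Btg3, an antiproliferative gene, was at -0.13, 0.47, 0.32 and 0.84 in 4 E8w1B livers, against -2.18, -2.37, -2.30, -2.39 and -1.50 in E8w livers, and rose by 2.52 ± 0.35 (adjusted p = 3.29e-05). Its relative Btg2 rose by 2.11 ± 0.35, and the stress genes Gadd45g and Gadd45b by 2.27 ± 0.34 and 1.20 ± 0.18, with adjusted p between 4.88e-05 and 0.000183. The stress kinase gene Plk3 rose by 1.46 ± 0.32 (adjusted p = 0.0025). For these 6 genes the groups' arrays did not overlap, which the choice of the largest rises required of Cdkn1a and Btg3. The transcript of p53 itself, Trp53, was at -0.28 ± 0.081 (adjusted p = 0.0175). Its other probe was at 0.18 (adjusted p = 0.267) and the mean of both at -0.077. The call was also lost with median centring, in Cy5 alone, in the 10 arrays alone and without E8w1B replicate 2 (adjusted p = 0.0612), and Trp53 was chosen after its value was seen.

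Of 26 cell cycle genes 2 passed as higher, Ccne1 and Ccnb2, and 1 as lower, Ccne2. Over all genes tested 8.03% passed as higher and 8.39% as lower, so nothing is read from these counts. With median centring or in Cy5 alone 1 was higher and 0 lower, and without 1 array 1 or 2 were higher and 0 or 1 lower. Tk1 and Mcm10, 2 other genes of DNA replication, were among the 15 largest falls of called genes whose arrays did not overlap. Genes with dim signals or missing arrays were also left out of that choice. Tk1, which encodes the thymidine kinase of the nucleotide salvage pathway, was at -1.36, -1.31, -1.37, -1.03 and -1.77 in E8w1B livers, against 0.30, 0.41, 0.47, 0.90 and 0.70 in E8w livers. Mcm10, whose product helps start replication forks, was at -2.02, -2.07, -1.74, -1.27 and -2.09 in E8w1B livers, against -0.52, -0.39, 0.023, 0.38 and 0.64 in E8w livers. Both groups of arrays were apart for each gene, which that choice required. Tk1 differed by -1.92 ± 0.19 and Mcm10 by -1.86 ± 0.28 (adjusted p = 2.87e-07 and 4.68e-05).

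Immediate early genes encode transcription factors and feedback proteins that cells switch on within minutes of a stimulus. Of 26 tested 14 rose and 0 fell, with 11 to 15 rises when 1 array was left out. Egr1, a zinc finger factor, was at 2.02, 0.38, 1.42, 1.31 and 0.23 in E8w1B livers, against -2.57, -2.67, -2.35, -1.93 and -2.09 in E8w livers. It rose by 3.39 ± 0.39 (10.5-fold, adjusted p = 2.97e-06). The factor genes Klf4, Cebpd and Jund rose by 1.21 ± 0.17, 1.35 ± 0.19 and 1.23 ± 0.20 (adjusted p between 2.6e-05 and 0.00016), and Ier5 by 0.74 ± 0.12 (adjusted p = 0.000147). For each of these 5 genes no binge array lay below an E8w array, which the choice of the largest rises required of Egr1. Junb, a part of the AP-1 factor, rose by 1.57 ± 0.30 (adjusted p = 0.000718) on its brightest probe, while its other probe was at 0.23 (adjusted p = 0.18). Atf3, a stress-induced factor, was at 0.73 ± 0.28 and did not pass (adjusted p = 0.0848), although its arrays did not overlap.

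**Figure D2:**
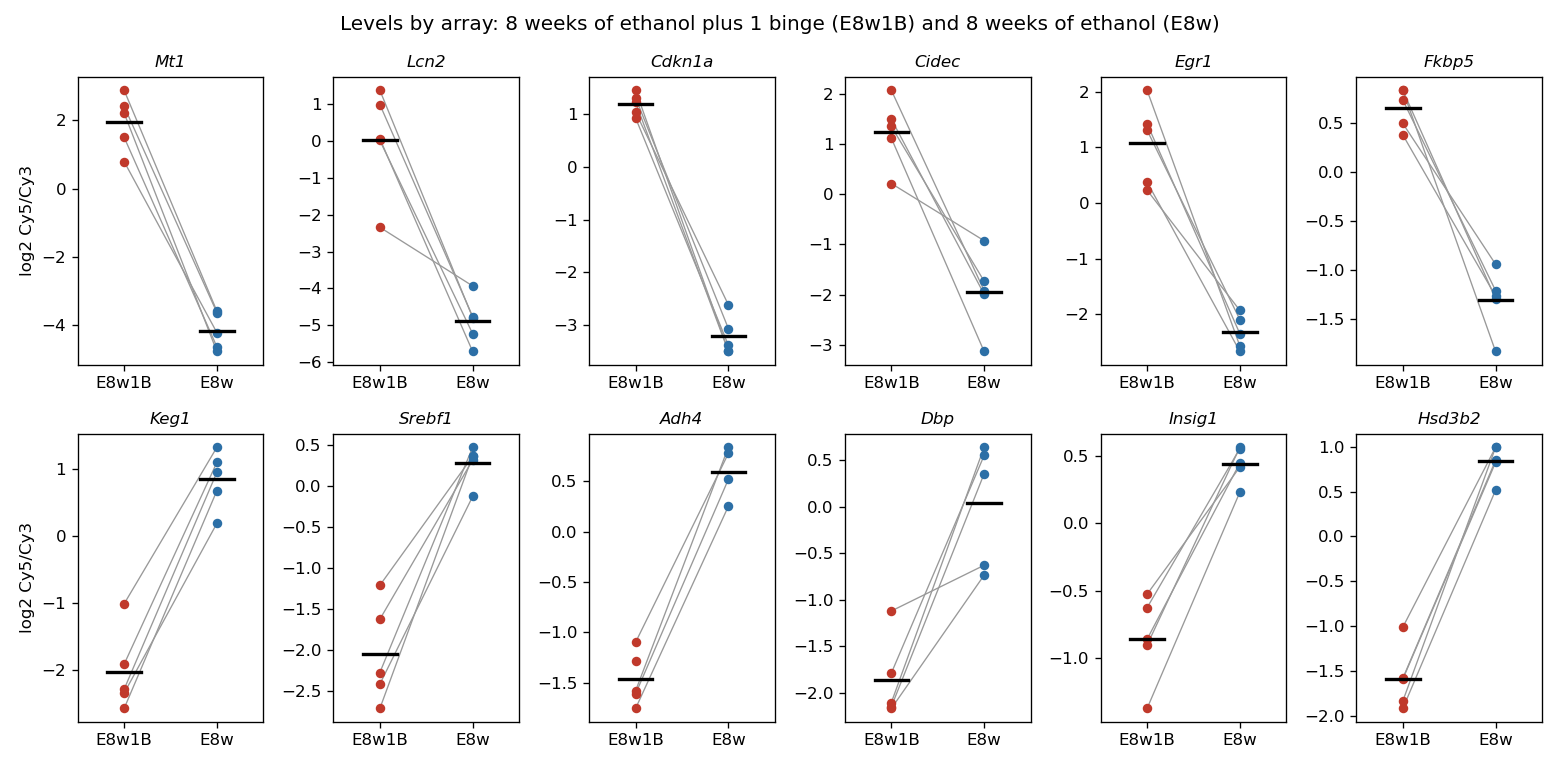
Log2 Cy5/Cy3 of 12 genes on the 5 E8w1B arrays (red, left) and the 5 E8w arrays (blue, right) of each panel, with grey lines that join arrays on the same slide and black bars at the group means. The upper row shows genes higher after the binge and the lower row genes lower after it, and the 1 low binge point of Lcn2 is replicate 2.

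Several of the largest rises lay outside the pathway lists. Tnfrsf12a, the receptor of the cytokine TWEAK, was at 1.04, 0.89, 1.20, 0.69 and 1.33 in E8w1B livers, against -1.86, -1.89, -1.89, -2.08 and -1.32 in E8w livers, and rose by 2.84 ± 0.20 (adjusted p = 2.2e-08). Thbd, which encodes the anticoagulant receptor thrombomodulin, was at 0.89, 0.57, 1.25, 0.55 and 0.99 in E8w1B livers, against -2.27, -2.21, -1.99, -1.82 and -1.66 in E8w livers. Thbd was well above background on 2 of 5 E8w arrays, so its rise of 2.84 ± 0.37 (adjusted p = 1.07e-05) depends on dim signals there, and the scanner software's log ratio gave 4.75. Mrap, an accessory protein gene of the ACTH receptor, rose by 2.67 ± 0.34, the tight junction gene Cldn14 by 2.55 ± 0.33 and the uncharacterised gene 2010003K11Rik by 2.45 ± 0.35 (adjusted p between 9.43e-06 and 4.19e-05). All 5 genes were apart between the groups, which the choice of the largest rises required.

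The unfolded protein and integrated stress responses slow translation and raise folding factors when proteins misfold or amino acids run short. Of 24 genes tested 5 rose and 0 fell, and 23 of 24 differences were above 0, with a median of 0.48. The median of the list per array was 0.83, 0.17, 0.068, 0.33 and 0.66 in E8w1B livers and -0.10, -0.023, -0.016, 0.046 and 0.079 in E8w livers, highest on E8w1B replicate 1. Without that array 4 rose, and 8 rose without E8w1B replicate 2. Chac1, which degrades glutathione and is induced by this response, rose by 1.43 ± 0.37 (adjusted p = 0.00942). Eif2ak3, the sensor kinase PERK, rose by 0.88 ± 0.19 (adjusted p = 0.00187) and Phgdh, the first enzyme of serine synthesis, by 0.50 ± 0.085 (adjusted p = 0.000274). The other Phgdh probes were at 0.44 (adjusted p = 0.00337) and 0.12 (adjusted p = 0.788). The other 2 that rose were Asns and Atf6. Manf, a secreted folding factor gene, was at 0.99 ± 0.36 and did not pass (adjusted p = 0.0612).

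Among 20 genes of lipid droplet proteins and lipases 6 rose and 3 fell, with 1 fall in Cy5 alone or with median centring. Cidec was at 0.22, 1.12, 2.07, 1.35 and 1.50 in E8w1B livers, against -0.93, -3.14, -1.92, -1.99 and -1.73 in E8w livers, with every binge array above all E8w arrays. It rose by 3.19 ± 0.60 (9.15-fold). When 1 array was left out its difference lay between 2.90 and 3.45, and the highest adjusted p was 0.00267. Cideb, the family member that hepatocytes use to load lipoproteins with fat, was at -0.55 ± 0.13 (n = 4 and 2, adjusted p = 0.00661). The call of Cideb was lost with median centring and in Cy5 alone. Plin4, a droplet coat gene, was at 0.60, 1.02, 1.36, 1.29 and 1.19 in E8w1B livers, against -0.39, -1.51, -1.25, -1.30 and -1.42 in E8w livers, and rose by 2.27 ± 0.25 (adjusted p = 2.17e-06). Plin5, which tethers droplets to mitochondria, rose by 1.02 ± 0.13 (adjusted p = 7.76e-06) and Plin3 by 1.00 ± 0.14 (n = 4 and 5, adjusted p = 6.15e-05). Plin2, the main droplet coat gene of fatty liver, was at 0.98 ± 0.34 (n = 5 and 4) and did not pass (adjusted p = 0.0521), although its arrays did not overlap.

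Pnpla2, which encodes the triglyceride lipase ATGL, rose by 1.36 ± 0.23 (n = 4 and 4, adjusted p = 0.00035), and Abhd5, which encodes its activator, by 0.60 ± 0.097 (adjusted p = 0.000121). G0s2, which encodes the inhibitor of ATGL, was at -1.09 ± 0.31 (adjusted p = 0.0161), a call lost without E8w replicate 4, in Cy5 alone, in the deposited values and with marked spots kept. Hsd17b11, a droplet-bound dehydrogenase gene, was at -0.55 ± 0.099 (adjusted p = 0.000351) and did not pass with median centring. Its other probe was at -0.34 (adjusted p = 0.053). Cideb and G0s2 were chosen after their values were seen.

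Srebf1, which encodes the lipogenic factor SREBP-1, was at -2.71, -2.27, -1.62, -1.21 and -2.41 in E8w1B livers, against 0.37, 0.48, 0.32, -0.13 and 0.36 in E8w livers, a difference of -2.33 ± 0.32 (adjusted p = 1.96e-05). Among 19 genes for making fatty acids and triglycerides 2 rose and 2 fell, with 5 falls without E8w1B replicate 4 and 4 rises without E8w1B replicate 1, and 1 rise in Cy5 alone and without E8w replicate 2 or 5. Gpam, the first enzyme of glycerolipid synthesis, was at -0.92 ± 0.24 (adjusted p = 0.00822, lost in the 10 arrays alone; -1.57 in the scanner software's log ratio). Lpin1, a phosphatidate phosphatase and coactivator gene, rose by 1.69 ± 0.47 (adjusted p = 0.0148, and 0.0501 with the slide as a block). The other that passed as higher was Lpin3, a call lost in Cy5 alone, in the 10 arrays alone and when any 1 of 4 arrays was left out. Insig1, which holds sterol regulators in the endoplasmic reticulum, was at -0.90, -0.53, -0.86, -0.63 and -1.37 in E8w1B livers, against 0.56, 0.42, 0.45, 0.23 and 0.56 in E8w livers, and fell with a difference of -1.30 ± 0.21 (adjusted p = 9.74e-05). Nr1h3, the oxysterol receptor LXR-alpha, was at -0.86 ± 0.13 (adjusted p = 5.85e-05), while the cholesterol exporter gene Abca1 rose by 1.09 ± 0.20 (adjusted p = 0.00044). In the cholesterol list of 23 genes 2 rose and 4 fell, with 1 rise in Cy5 alone, with median centring and when any 1 of 6 arrays was left out. Over all genes tested 8.03% rose and 8.39% fell, so nothing is read from the counts of the synthesis and cholesterol lists.

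Among 27 genes of PPAR-alpha and the oxidation of fatty acids 3 rose and 8 fell, and 4 fell with median centring. Ppara, the fatty acid receptor that drives this programme, was at -1.49, -0.18, -0.25, -0.60 and -0.74 in E8w1B livers, against 0.53, 0.18, 0.41, 0.59 and 0.36 in E8w livers, a difference of -1.06 ± 0.18 (adjusted p = 0.000191). Its arrays did not overlap between the groups. Fgf21, which encodes a stress and fasting hormone of the liver, rose by 1.31 ± 0.27 (adjusted p = 0.00126) on its brightest probe. Its other probe was at 0.31 and did not pass (adjusted p = 0.439), and the mean over its probes was 0.81. Among 20 genes of fatty acid uptake and lipoproteins 4 rose and 9 fell, and 4 fell with median centring and 5 in Cy5 alone. Apoa4, which encodes an apolipoprotein of triglyceride-rich particles, rose by 2.51 ± 0.49 (n = 5 and 4, adjusted p = 0.00114) and the fatty acid binding gene Fabp4 by 1.17 ± 0.13 (n = 5 and 4, adjusted p = 3.56e-06). Slc27a5, a bile acid and fatty acid activating enzyme, was at -0.94 ± 0.12 (adjusted p = 2.24e-05), and the apolipoprotein gene Apoc1 at -0.83 ± 0.13 in the ratio (adjusted p = 0.000116) and -0.36 in Cy5 alone.

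**Figure D3:**
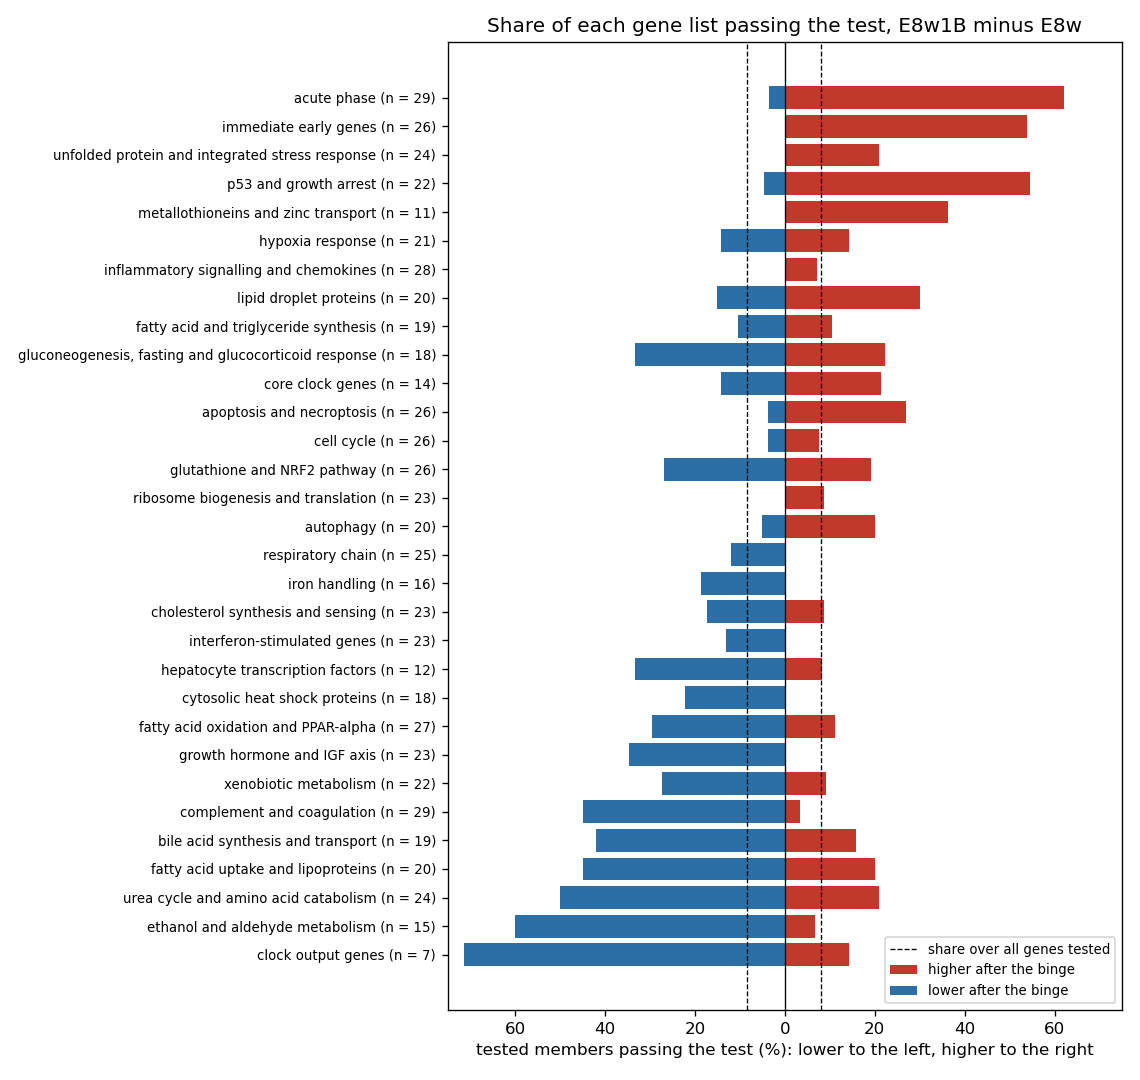
For each of 31 pathway lists, bars show the percent of its tested members (n in brackets) that were higher after the binge (red, to the right) or lower (blue, to the left) at an adjusted p under 0.05. Dashed lines mark the shares over all 15831 genes, 8.03% higher and 8.39% lower, and the acute phase, immediate early and growth arrest lists have the longest red bars.

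Of 15 ethanol and aldehyde metabolism genes 9 fell and 1 rose, with a median difference of -0.50. With median centring 3 fell and in Cy5 alone 6. Adh4, a class of alcohol dehydrogenase active on retinol and long alcohols, was at -1.75, -1.61, -1.28, -1.10 and -1.58 in E8w1B livers, against 0.25, 0.52, 0.83 and 0.77 in 4 E8w livers, a difference of -2.06 ± 0.20 (adjusted p = 7.8e-07). Cyp2e1, the ethanol-oxidising cytochrome, was at 0.024, -0.92, -0.51, -0.28 and -0.30 in E8w1B livers, against 0.08, 0.47, 0.21, 0.51 and 0.70 in E8w livers, a difference of -0.79 ± 0.16 (adjusted p = 0.00114). Aldh3a2, a fatty aldehyde dehydrogenase gene, was at -1.06 ± 0.24 (adjusted p = 0.00321). These 3 genes had every binge array below every E8w array, which the choice of the largest falls required of Adh4. The member that rose was Adh7, an alcohol dehydrogenase better known from stomach, by 0.73 ± 0.15 in the ratio (adjusted p = 0.00118) and by 1.22 in the scanner software's log ratio. Acss2, which turns acetate into acetyl-CoA, was at -0.21 ± 0.26 (n = 5 and 4) and did not pass (adjusted p = 0.698).

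In the xenobiotic metabolism list of 22 genes 2 rose and 6 fell, with 1 rise in Cy5 alone or with median centring. Over all genes tested 8.03% rose and 8.39% fell. Alas1, the rate-limiting enzyme of haem synthesis, was at -1.19, -0.73, -0.56, -1.51 and -0.60 in E8w1B livers, against -0.068, 0.19, 0.97, 1.08 and 1.23 in E8w livers, a difference of -1.60 ± 0.24 (adjusted p = 0.000113). The drug-inducible cytochrome gene Cyp2b10 rose by 2.72 ± 0.47 (adjusted p = 0.000459), with arrays that overlapped, while Nr1i3, which encodes its activating receptor CAR, was at -0.97 ± 0.20 (n = 5 and 4, adjusted p = 0.00247).

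Of 19 genes of bile acid synthesis and transport 8 fell and 3 rose, and 5 fell with median centring. Cyp7a1, the rate-limiting enzyme of bile acid synthesis, was at -1.84, -1.86, -2.02, -0.26 and -1.42 in E8w1B livers, against -0.63, 1.25, -0.18, 0.85 and 0.43 in E8w livers. It was well above background on 2 of 5 E8w1B arrays, so the difference of -1.82 ± 0.43 (adjusted p = 0.00469) depends on dim signals, and it was -3.97 in the scanner software's log ratio. The other Cyp7a1 probe was at -1.11 and did not pass (adjusted p = 0.165). Cyp7a1 was chosen after its value was seen. Cyp8b1, which sets the share of cholic acid, was at -1.57 ± 0.25 (n = 5 and 3, adjusted p = 0.000558). Nr0b2, whose product SHP represses both enzymes, was also lower, at -1.04 ± 0.21 (adjusted p = 0.0011). The organic anion transporter gene Slc22a7 was at -1.58 ± 0.23 (adjusted p = 4.26e-05), and the bile acid transporter gene Slc10a2 rose by 1.69 ± 0.24 (adjusted p = 2.44e-05). Cyp7b1, of the alternative synthesis route, was at -0.37 ± 0.55 and did not pass (adjusted p = 0.754).

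Of 26 glutathione and NRF2 genes, which protect against oxidants, 5 rose and 7 fell, with 8 rises without E8w1B replicate 1 3 falls with median centring and 4 in Cy5 alone. Gpx3, a secreted glutathione peroxidase, rose by 1.59 ± 0.20 (adjusted p = 5.99e-06), while the intracellular peroxidase gene Gpx1 was at -0.83 ± 0.12 (adjusted p = 4.91e-05). Gstm1, a glutathione transferase, rose by 1.93 ± 0.35 (adjusted p = 0.000414, 1.08 in Cy5 alone), and its relative Gsta3 was at -1.20 ± 0.23 (adjusted p = 0.000787). Gstm genes are alike in sequence, so their probes may share targets. Txnrd1, a thioredoxin reductase induced by NRF2, rose by 0.60 ± 0.093 (n = 5 and 4, adjusted p = 0.000205).

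**Figure D4:**
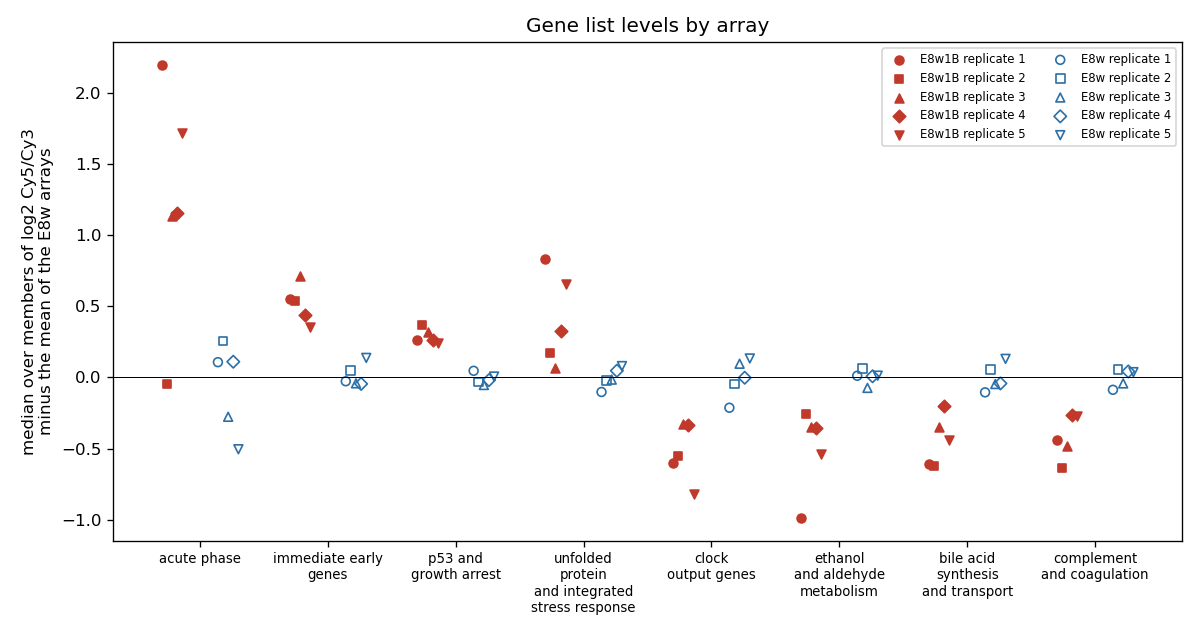
Median over the members of 8 gene lists of log2 Cy5/Cy3 minus the mean of the E8w arrays, on each E8w1B array (filled red) and each E8w array (open blue), with a symbol for each replicate number. E8w1B replicate 2 (filled square) lies at -0.04 in the acute phase list, among the E8w arrays, and with the other binge arrays in the immediate early and growth arrest lists.

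Clock output genes follow the daily clock and tie metabolism to the hour. Of 7 tested 5 fell and 1 rose, with a median difference of -0.71. Dbp, a factor driven directly by the clock, was at -2.17, -1.12, -1.79, -2.15 and -2.10 in E8w1B livers, against -0.73, -0.63, 0.55, 0.64 and 0.36 in E8w livers, and its difference was -1.90 ± 0.26 (adjusted p = 2.12e-05). Its relative Tef was at -0.91 ± 0.12 (adjusted p = 1.09e-05), the mitotic kinase gene Wee1 at -0.48 ± 0.093 (adjusted p = 0.000902), and their opponent Nfil3 rose by 1.42 ± 0.22 (adjusted p = 7.94e-05). Among 14 core clock genes 3 rose and 2 fell, with 1 rise in Cy5 alone. Clock rose by 0.63 ± 0.11 (adjusted p = 0.000388, 0.97 in the scanner software's log ratio, 0.36 as the mean of its probes). Its other probes were at 0.11 and 0.33 and did not pass (adjusted p = 0.518 and 0.057). Per3 fell, at -0.73 ± 0.11 (adjusted p = 5.38e-05; -1.69 in that log ratio). The hour of collection is not given in the sources used here, so its part was not tested.

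Of 18 genes of gluconeogenesis, fasting and the glucocorticoid response 4 rose and 6 fell, while 2 fell with median centring and 2 rose in Cy5 alone. Fkbp5, a co-chaperone gene that glucocorticoids induce, was at 0.74, 0.83, 0.38, 0.50 and 0.83 in E8w1B livers, against -1.21, -1.83, -1.27, -1.30 and -0.94 in E8w livers, and rose by 1.97 ± 0.16 (adjusted p = 7.51e-08). Tat, a tyrosine-degrading enzyme also induced by glucocorticoids, rose by 1.34 ± 0.29 (adjusted p = 0.00285). G6pc, the last enzyme of glucose release, was at -1.98 ± 0.41 (n = 5 and 4, adjusted p = 0.00167), and Depp1, a gene induced in fasting through FOXO factors, at -2.02 ± 0.29 (adjusted p = 2.75e-05). Of 23 genes of the growth hormone and IGF axis 8 fell and 0 rose (5 fell with median centring). The male-predominant steroid dehydrogenase gene Hsd3b5 was at -2.94, -3.97, -3.65, -1.71 and -3.72 in E8w1B livers, against -2.84, -2.29, -0.43, -0.59 and 1.15 in E8w livers. It was well above background on 3 of 5 E8w1B arrays, and its difference was -2.20 ± 0.55 (adjusted p = 0.00639), or -3.78 in the scanner software's log ratio. Its relatives Hsd3b2 and Hsd3b3 were at -2.42 ± 0.24 and -1.59 ± 0.22 (adjusted p = 6.17e-07 and 2.63e-05), and the other 2 probes of Hsd3b2 were at -2.14 and -0.41 (adjusted p = 4.96e-06 and 0.040). The family is alike in sequence, so its probes may share targets. Igfals, which holds IGF-1 in the blood, was at -1.45 ± 0.17 (adjusted p = 4.01e-06) and the binding protein gene Igfbp2 at -1.97 ± 0.40 (adjusted p = 0.00112).

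The largest fall of all named genes was that of Keg1, at -2.58, -2.35, -1.92, -1.02 and -2.29 in E8w1B livers, against 0.67, 0.19, 1.10, 0.95 and 1.32 in E8w livers, a difference of -2.87 ± 0.37 (7.33-fold lower, adjusted p = 1.07e-05). Other large falls outside the lists were Apol7a, an apolipoprotein L family gene, at -2.39 ± 0.25 (n = 5 and 4), and Inmt, an indole methyltransferase gene, at -2.34 ± 0.21. Nat8f1, an acetyltransferase family gene, was at -2.10 ± 0.14, and the sulfate transporter gene Slc26a1 at -2.05 ± 0.17. The adjusted p of these 4 lay between 3.77e-08 and 1.49e-06, and in each the groups' arrays were apart. Both a passing test and groups apart were conditions of the choice of the largest falls.

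Of 24 urea cycle and amino acid genes 12 fell and 5 rose (3 rose without E8w replicate 3, and 7 fell with median centring). Hal, which starts histidine breakdown, was at -0.94, -1.90, -1.90, -0.74 and -1.32 in E8w1B livers, against 0.19, 0.89, 0.36, 0.49 and 0.62 in E8w livers, a difference of -1.87 ± 0.20 (adjusted p = 3.05e-06). Prodh of proline breakdown and Hpd of tyrosine breakdown were at -1.30 ± 0.16 and -1.66 ± 0.28 (n = 5 and 4 for Hpd; adjusted p = 7.76e-06 and 0.000225). Etnppl, a phosphoethanolamine lyase gene, was at -1.71 ± 0.28 (adjusted p = 0.00016; -2.63 in the scanner software's log ratio). Against these, Sdsl, a serine dehydratase relative, rose by 1.51 ± 0.29 (adjusted p = 0.000719) and the transaminase gene Got1 by 1.82 ± 0.30 (n = 3 and 4, adjusted p = 0.000774). Got1 was chosen after its value was seen.

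Complement and coagulation factors, also made by hepatocytes, fell in 13 of 29 cases and rose in 1, with 5 falls under median centring and 11 in Cy5 alone. Serpind1, the thrombin inhibitor heparin cofactor II, was at -1.07, -1.13, -1.16, -0.80 and -1.18 in E8w1B livers, against -0.051, 0.21, 0.13 and 0.27 in 4 E8w livers, a difference of -1.21 ± 0.10 (adjusted p = 1.74e-07). Mbl2, a mannose-binding lectin that starts complement, was at -1.33 ± 0.16, the factor XIII subunit gene F13b at -0.96 ± 0.095 and the prekallikrein gene Klkb1 at -1.07 ± 0.15 (n = 5 and 4 each; adjusted p between 7.8e-07 and 4.84e-05).

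Markers of sinusoidal endothelial cells, which line the liver capillaries, moved in both directions, 3 higher and 3 lower of 14. Over all genes 8.03% were higher and 8.39% lower. In Cy5 alone 2 of the markers were higher and 2 lower, and with median centring 2 and 3. Lyve1, a hyaluronan receptor gene of these cells, was at -0.016, 1.42, 1.04, 0.99 and 0.74 in E8w1B livers, against -1.52, -1.49, -1.56, -1.50 and -1.96 in E8w livers, and rose by 2.44 ± 0.22 (adjusted p = 1.28e-07). Clec4g, a lectin gene, and Kdr, a VEGF receptor, were at -0.87 ± 0.13 and -0.86 ± 0.17 (adjusted p = 7.91e-05 and 0.000729), with Kdr at -1.55 in the scanner software's log ratio. The junction gene Cdh5 rose by 0.51 ± 0.11 (adjusted p = 0.00207), while its other probe was at 0.32 and did not pass (adjusted p = 0.0783).

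In the E8wMB livers several named genes did not have a single level, while others varied little, such as Plin5 with an SD of 0.087. For the former the 4 arrays fell in 2 pairs: replicates 1 and 3, and replicates 2 and 4. Over all genes the difference between 2 arrays had an SD of 0.226 and 0.189 within these pairs and 0.28 to 0.31 between them, against 0.212 to 0.31 between arrays of E8w. Whether the arrays of a pair share RNA is not given in the sources used here. Mt1 was at 1.33, -0.91, 1.33 and -1.08 in the E8wMB livers, Cdkn1a at 0.37, -2.59, 0.50 and -2.42, Lcn2 at 0.22, -2.61, 0.20 and -2.43 and Cidec at 0.74, -1.24, 0.81 and -1.10, so that replicates 1 and 3 lay nearer the mean of the E8w1B arrays listed above. In the P8w livers Mt1 was at -3.97, -2.92, -3.24 and -4.26, Cdkn1a at -2.33, -3.13, -3.37 and -3.07, Lcn2 at -3.68, -4.08, -3.14 and -5.88 and Cidec at -0.73, -2.91, -2.51 and -1.83. The same pairs appeared for the falling gene Keg1, at -0.85, 0.92, -0.69 and 1.19 in E8wMB livers and 0.64, 0.70, 1.11 and 1.27 in P8w livers, and for Dbp, at -0.39, 0.50, -0.24 and 0.37 in E8wMB livers and 0.82, 1.19, 0.94 and 1.46 in P8w livers. Hamp2 was at -0.81, -1.75, -0.94 and -1.63 in E8wMB livers and 0.77, 0.25, 0.26 and 2.16 in P8w livers, and Tnfrsf12a, measured on E8wMB replicates 2 and 4 alone, at -1.33 and -1.17 in E8wMB livers and -0.97, -1.83, -2.02 and -2.22 in P8w livers. Between E8wMB and E8w1B, 4554 of 15454 genes (29.5%) passed, as did 96 of the 209 named genes tested. The names were chosen on the same E8w1B arrays, so nothing is read from that count. All E8wMB arrays, and no others, shared 1 scan date, and their slides held no other group. Scan date, slide and group therefore cannot be told apart there. Their median Cy3 intensity lay between 317 and 505, against 161.5 to 242.5 on the 10 compared arrays.

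**Figure D5:**
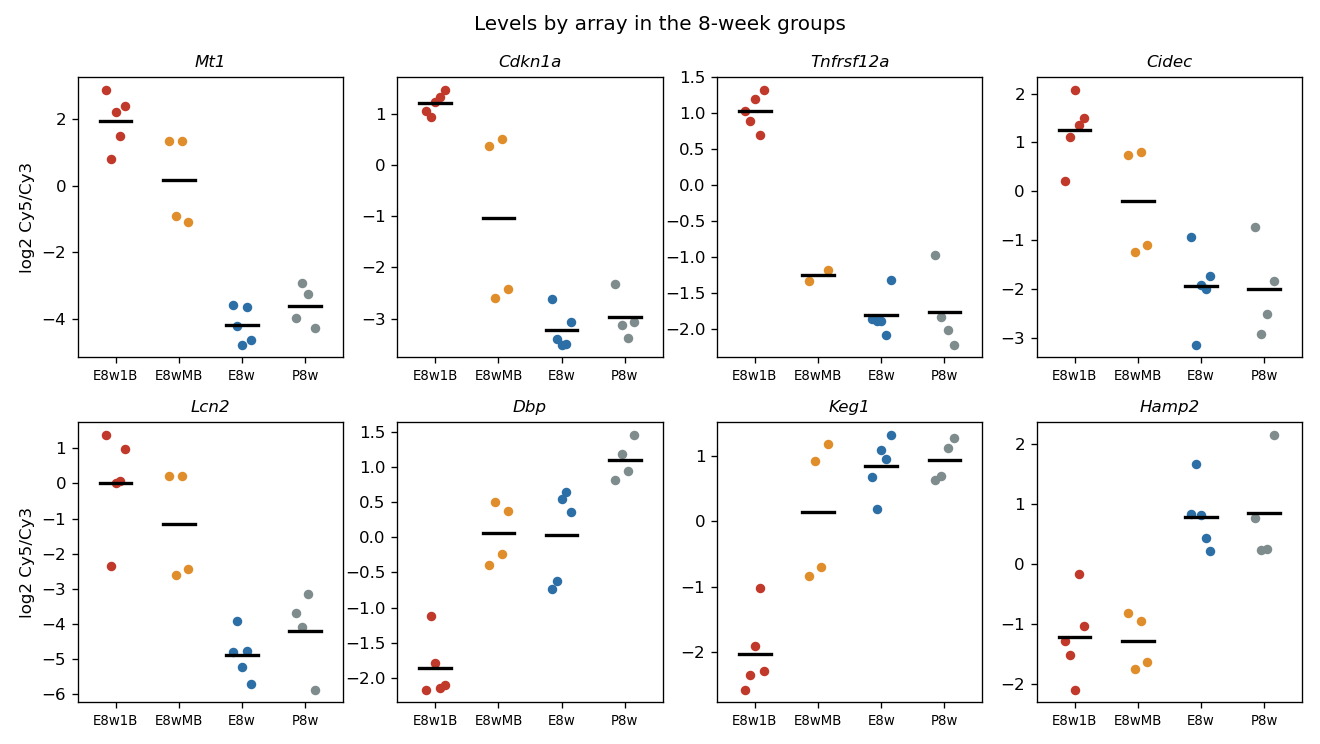
Log2 Cy5/Cy3 of 8 genes on each array of E8w1B (red), E8wMB (orange), E8w (blue) and P8w (grey), with black bars at the means of the arrays shown. For Mt1, Cdkn1a, Lcn2, Cidec and Keg1 the 4 E8wMB arrays lie in 2 separate pairs.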

How the data were processed

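Liver RNA was measured on 24 Agilent 2-colour arrays, of which 10 make up the comparison. The spot intensities were read by the authors with Agilent Feature Extraction 11.5.1.1, per the file headers and the submitters' processing notes. The deposited log10 ratios (Cy5 over Cy3) are background-subtracted and dye-normalized, per the file headers. The deposited log2 values matched the log2 of those ratios with slopes of 1.00 to 1.01, and how they were made is not given in the sources used here. The software's 0 or 1 marks were also used.

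Levels were recomputed from the median intensities in limma 3.58.1 (R 4.3.3, statmod 1.5.0): normexp background correction with an offset of 50, then loess within each array. Spots that carried the software's mark for a non-uniform or outlying spot, 1.34% to 6.66% of an array, were left out, so some genes have fewer arrays. A probe was kept where its Cy5 signal stood well above background on 3 or more of the 24 arrays. This kept 36620 of 41174 probes without the control spots, and 22944 of these were named through RefSeq accessions of GRCm38.p6, used for names and promoters. They gave 16140 genes, and for 5351 with several probes the brightest one measured on at least 2 arrays of each group was used. One limma fit of 6 group means over all 24 arrays, with empirical Bayes moderation and Benjamini-Hochberg adjustment over 15831 genes, gave all adjusted p-values. It was tested on simulated data.

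The comparison, its gene lists and the rule for named genes were chosen with earlier results of these data known. The rule took Cidec, the 15 largest rises and the 15 largest falls with groups that did not overlap, and from each of 41 lists up to 6 called genes with the lowest adjusted p and the uncalled gene with the largest difference. Some of the 228 genes it gave are not reported here. The 25 alternatives included median centring, Cy5 alone, slide and replicate blocks and each of 10 arrays left out.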

Additional observations from a re-analysis of the deposited data

Results flagged for a closer look

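The 5 arrays of each group were searched for a value far from the other 4, over the genes named above. Of 263 groups searched 12 held such an array, where chance flags about 1 in 20. The count is no more than chance would give, so nothing is read from it. E8w replicate 5 was the array in 5 of them. It was at -1.46 for Cd14 (others -2.44 to -2.19), at -1.50 for Btg3 (others -2.39 to -2.18), at -1.32 for Tnfrsf12a (others -2.08 to -1.86) and at -0.20 for Bcl2l1 (others -1.29 to -1.02). For these 4 genes, which were higher after the binge, it lay toward the E8w1B arrays. For Lyve1 it lay away from them, at -1.96 (others -1.56 to -1.49).

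In E8w1B, replicate 5 was at 0.46 for Abhd5 (others 0.036 to 0.092) and replicate 4 at -0.80 for Serpind1 (others -1.18 to -1.07). The other flags were single genes on E8w arrays. Replicate 1 was at -0.39 for Plin4 (others -1.51 to -1.25) and at -0.18 for Nr0b2 (others 0.45 to 0.53). Replicate 2 was at 0.84 for Dnaja1 (others 0.21 to 0.38) and at 0.19 for Mbl2 (others 0.56 to 0.62). Replicate 4 was at -0.13 for Srebf1 (others 0.32 to 0.48).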

How the results depend on the processing

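The counts of genes that passed moved by more than 1.5 times in 2 settings. With median centring 1330 genes passed, 829 higher and 501 lower, and in Cy5 alone 1388 passed, 701 higher and 687 lower; the cause was not tested. Without 1 array of either group the count lay between 2163 and 2737, with 1051 to 1319 higher and 1068 to 1508 lower. The difference of Cidec kept its call in all alternatives, and lay between 2.90 and 3.45 without 1 array. The count of named genes that differed between multiple binges and a single binge, an alternative chosen after seeing the data, lay between 86 and 103 without 1 array. With the group means taken off, same-numbered arrays of the 2 groups correlated at 0.014 to 0.23, and 3 of 5 pairs lay under 0.1. Arrays with different numbers correlated at -0.40 to 0.37, the highest on a shared slide. These values cannot decide whether replicate numbers pair the samples, since replicates 1, 2 and 3 of the 2 groups also share slides. With the replicate block 2632 genes passed, 1267 higher and 1365 lower, and with the slide as a block 2612. Of the genes given values above, 2 that did not pass changed sign without 1 array. Without 1 array Cyp7b1 lay between -0.99 (without E8w1B replicate 1) and 0.082 (without E8w1B replicate 2), and Acss2 between -0.46 (without E8w replicate 5) and 0.068 (without E8w replicate 1). At least 2-fold differences were more numerous in the scanner software's log ratio (292 higher and 244 lower) and in the deposited log2 values (303 and 254) than in the recomputed ratio (170 and 145). Precision was limited throughout by how many arrays there were.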

Other observations

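Of 20 autophagy genes 4 rose and 1 fell, with 0 falls in Cy5 alone or with median centring, and Map1lc3b, which encodes the autophagosome protein LC3B, was at 0.15, 0.23, 0.23, 0.35 and 0.48 in E8w1B livers, against -0.51, -0.54, -0.55, -0.47 and -0.46 in E8w livers, a rise of 0.79 ± 0.089 (adjusted p = 2.62e-06). Of 26 genes of apoptosis and necroptosis 7 rose and 1 fell, with 3 rises in Cy5 alone and 0 falls there, with median centring and when any 1 of 6 arrays was left out. The medians of these lists were -0.031 and 0.041, against 0.012 over all genes. Bcl2l1, which encodes the survival protein BCL-XL, was at 0.96, 0.39, 0.26, 0.23 and 0.73 in E8w1B livers, against -1.29, -1.19, -1.08, -1.02 and -0.20 in E8w livers, and rose by 1.47 ± 0.23 (adjusted p = 6.93e-05). Tnfrsf1a, the main receptor of tumour necrosis factor, rose by 0.80 ± 0.11 (adjusted p = 1.42e-05). In the list of inflammatory signalling genes and chemokines 2 of 28 rose, Cxcl1 and Rela, which encodes a subunit of NF-kappaB and rose by 0.62 ± 0.10 (adjusted p = 0.000174), while 4 rose without E8w1B replicate 2 and 1 when any 1 of 4 other arrays was left out. None of these 28 fell in limma, and over all genes tested 8.03% rose and 8.39% fell.

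Of 21 genes of the hypoxia response 3 passed as higher and 3 as lower, with 1 lower under median centring, without E8w1B replicate 1 or 5 and without E8w replicate 1 or 4. Epas1, which encodes the oxygen-regulated factor HIF-2-alpha, rose by 0.96 ± 0.13 (n = 4 and 5, adjusted p = 1.98e-05) and the glycolytic gene Aldoa by 0.92 ± 0.12 (adjusted p = 1.47e-05). Vegfa, which encodes the vascular growth factor VEGF-A, was at -0.76, -0.47, -0.83, -0.53 and -0.92 in E8w1B livers, against 0.16, -0.025, -0.089, 0.21 and 0.25 in E8w livers, a difference of -0.81 ± 0.12 (adjusted p = 0.000116). Against 8.39% lower and 8.03% higher over all genes, 3 of 23 interferon-stimulated genes fell and 0 rose. These were the immunoproteasome genes Psmb8 at -0.75 ± 0.13 and Psmb9 at -0.78 ± 0.20, and Ifit3 at -0.78 ± 0.19 (adjusted p between 0.000218 and 0.00849). Of 18 cytosolic heat shock genes 4 fell and 0 rose, with 2 falls in Cy5 alone, with median centring and without E8w1B replicate 1 or 3. Dnaja1, a co-chaperone gene, was at -0.68, 0.10, -0.23, -0.073 and -0.48 in E8w1B livers, against 0.35, 0.84, 0.29, 0.21 and 0.38 in E8w livers, a difference of -0.69 ± 0.15 (adjusted p = 0.00236).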
